A study of Mus musculus with 9 samples.

Results

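Bulk prostate RNA of mice carrying 1 null allele of Srd5a2 (Srd5a2+/-, Het, 3 libraries) was compared with that of wild-type mice (Srd5a2+/+, WT, 3 libraries), 6 of the 9 libraries of the series. All genes entered the comparison, and 16836 of the 54532 in the deposited count table passed the filter on low counts and were tested. The other 3 libraries, from mice with both alleles null (Srd5a2-/-, KO), are given beside the results. Het males of a Srd5a2-null model had been mated to wild-type C57BL6 females, and their offspring were bred on, with null males taken from the third generation. The labels name no tissue restriction of the null allele, and the libraries hold RNA of all prostate cell types together. The labels give neither age nor the lobes taken. Nor do they say whether each library comes from its own animal, and the p-values may then reflect technical spread only.

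Srd5a2 encodes the type II 5-alpha-reductase, the enzyme that turns testosterone into dihydrotestosterone, the stronger androgen. The prostate epithelium is a secretory tissue: its luminal cells make large amounts of a few secreted proteins, which fold in the endoplasmic reticulum with the help of chaperones and leave through the exocytic route. When folding demand is high, the unfolded protein response raises chaperone genes through ATF6 and XBP1, and a related branch through ATF4 raises genes of amino acid supply and stress. The stroma around the glands holds smooth muscle, fibroblasts, vessels, nerves and resident immune cells, all of which add RNA to a whole-tissue library.

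Srd5a2 itself stood at 2.30, 5.50 and 8.81 CPM (counts scaled to library size) in WT against 3.68, 5.19 and 2.37 CPM in Het. The 2 groups overlapped, with a log2 fold change of -0.56 (SE 0.58) and an edgeR adjusted p of 0.816. The KO libraries still held some reads of the gene, at 0.934, 0.512 and 1.15 CPM (17, 9 and 22 counts), below every WT and Het library. The luminal secretory gene Pbsn, which encodes probasin, was present in every library, at 8323 to 13056 CPM in WT against 2508 to 6299 CPM in Het, so the labelled tissue was met by its marker. Libraries of 1 genotype differed widely in other secretory genes. Sbp, encoding spermine-binding protein of the rodent prostate, was at 0.994, 55578 and 16.02 CPM in WT 1 to 3, against 143989, 7.26 and 113544 CPM in Het 1 to 3. The 12 seminal vesicle marker genes summed to 31547 to 223208 CPM in WT against 6598 to 359676 CPM in Het, and 4 of them were lower in Het at an unadjusted edgeR p under 0.05: Sva, Svs3b, Svs1 and Svs3a, of which Svs1 was at 2.41, 255 and 2487 CPM in WT against 0, 12.3 and 2.65 CPM in Het. Without WT 3, Het 1 or Het 3 that count was 1. Of the 19 tested skeletal muscle markers 1, Mylpf, was lower at that threshold, and none without WT 3, Het 1 or Het 2. Among all genes 5.61% were lower at that threshold. The muscle list summed to 357 to 1469 CPM in WT against 150 to 708 CPM in Het. The part of both lists in the results below was not tested, apart from fits with each list score as a covariate.

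No gene passed in edgeR's quasi-likelihood test with Benjamini-Hochberg adjustment over all genes, where the lowest adjusted p was 0.38 (0 of 16836 called, 0.0%). All named differences below are therefore values that did not pass. At an unadjusted p under 0.05, 577 genes were higher in Het (3.43% of those tested) and 945 were lower (5.61%). Uniform p-values would give 842 in all, and no correction for genes that vary together was made. DESeq2, run as an alternative, called 54 genes higher (0.321%) and 151 lower (0.897%).

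Consistency between libraries was also read without a model, by asking whether the 3 Het values all lay on one side of the 3 WT values. This held for 791 genes higher in Het (4.7% of those tested) and 1447 lower (8.59%). If genotype made no difference, 3 against 3 libraries would separate in either direction for a share of 0.1 of genes. The share on the higher side was no more than an even division of that 0.1 gives. Separation of a single gene is therefore weak evidence. Of the 577 and 945 genes under the unadjusted threshold, 382 and 765 did not overlap in the same direction. For 577 of the 791 and 1079 of the 1447 genes the KO mean lay between the Het and WT means. These genes were selected because Het and WT lay apart. That selection alone favours a KO mean in between, so these counts do not place KO. Shorter genes leaned to the lower side: in the shortest tertile by gene length, 10.1% of genes were lower without overlap and 3.42% higher, against 7.15% and 6.25% in the longest.

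Het 1 often lay closest to WT on the lower side. It held the highest Het value in 791 of the 1447 genes that were lower without overlap, and in 108 of the 157 such genes that averaged at least 100 CPM. Among those 157, Het 2 held the lowest value in 78 and Het 3 in 61, and WT 1 held the highest WT value in 81. Without Het 1, edgeR called 56 genes higher and 202 lower, and without any other single Het or WT library it called none.

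The gene with the smallest p on the higher side was Rab11fip1 (ENSMUSG00000031488, GRCm38 chromosome 8, 27138773 to 27174646, minus strand), whose protein binds Rab11 on recycling endosomes. It was at 97.7, 98.8 and 121 CPM in WT against 219, 182 and 204 CPM in Het. The lowest Het library thus lay well above the highest WT library. The log2 fold change was 0.93 (SE 0.15, 95% interval 0.60 to 1.26, edgeR adjusted p = 0.38), and it stayed between 0.87 and 1.04 over 18 alternative settings, 4 of which called the gene. The KO libraries, at 106, 127 and 131 CPM, were near WT.

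Myo1e, a class I myosin that links membranes to actin, was at 22.4, 31.5 and 27.9 CPM in WT against 50.6, 54.2 and 55.4 CPM in Het (log2 fold change 0.97, SE 0.17, edgeR adjusted p = 0.392). Its relative Myo1d was at 91.0, 86.1 and 109 CPM in WT against 161, 155 and 158 CPM in Het (0.73, SE 0.20). In both myosin genes the Het libraries lay apart from WT. Bmpr1b, a type I receptor of bone morphogenetic proteins (BMPs), was at 76.3, 114 and 87.1 CPM in WT against 329, 184 and 219 CPM in Het (1.40, SE 0.27). Het 1 had the highest Bmpr1b level of the 9 libraries, and 2 KO libraries, at 148 and 182 CPM, also lay above WT. Acpp, the prostatic acid phosphatase, was at 5.02, 5.77 and 6.90 CPM in WT against 16.3, 13.1 and 13.2 CPM in Het (1.27, SE 0.26), and all 3 KO libraries, at 6.59 to 8.19 CPM, lay below Het.

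The other 11 of the 15 genes with the smallest p on the higher side had log2 fold changes of 0.63 to 1.24, and in each the 3 Het libraries lay above the 3 WT libraries. They included Cab39l (0.71, SE 0.15), a scaffold of the kinase LKB1, and Nsf (0.66, SE 0.15), the ATPase that takes SNARE complexes apart after membrane fusion. Hacd2 (0.74, SE 0.16) elongates very long chain fatty acids and Slc25a17 (0.63, SE 0.14) is a peroxisomal carrier. Tjp3 (0.65, SE 0.15) and Ppl (0.74, SE 0.17) encode a tight junction scaffold and the desmosomal protein periplakin. Ttc21b, at 1.24 (SE 0.26), acts in transport within cilia. The remaining 4 were Vmac, Ctdspl, Lrrc28 and Tbc1d30, at 0.64 to 0.89. DESeq2 called all 15 of these genes.

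**Figure D1:**
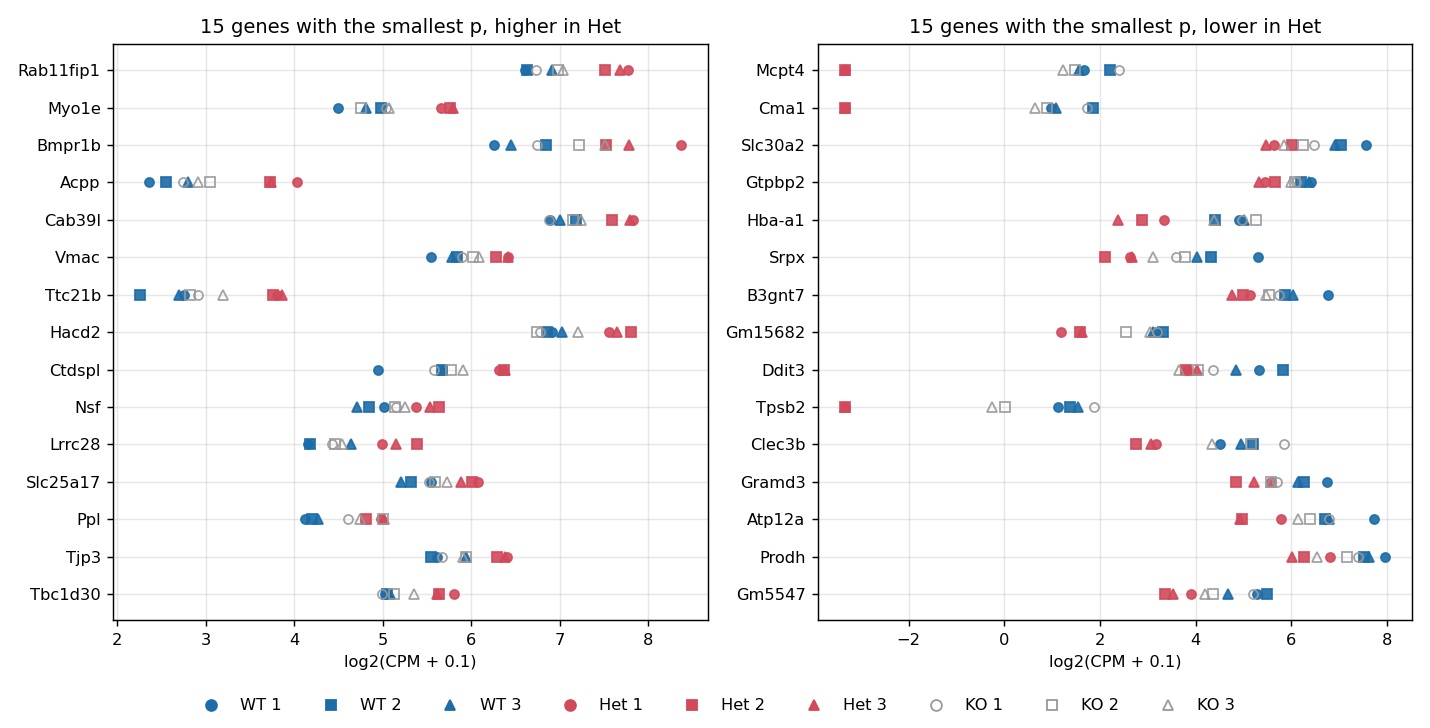
Level of the 15 genes with the smallest edgeR p on each side, as log2(CPM + 0.1), 1 symbol per library (WT blue, Het red, KO open grey). In every row the 3 Het symbols lie on one side of the 3 WT symbols; for Mcpt4, Cma1 and Tpsb2 the 3 Het libraries coincide at 0 counts.

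On the lower side, 3 genes had no read in any Het library. Mcpt4, Cma1 and Tpsb2 encode proteases stored in mast cell granules, a chymase pair and a tryptase. Mcpt4 had 59, 102 and 55 counts in WT and 0 in each Het library, at least 67.9-fold lower on a floor of 3 counts over the Het group. Cma1 had 36, 79 and 39 counts in WT (at least 48.1-fold lower) and Tpsb2 had 40, 56 and 54 (at least 47.9-fold lower). All 3 KO libraries held reads of the 3 genes, with Mcpt4 at 94, 47 and 43 counts, so among the 9 libraries the 3 Het libraries stood apart. DESeq2 called all 3 (adjusted p = 1.4e-06 for Mcpt4). Of the 8 tested mast cell markers 4 were lower at an unadjusted edgeR p under 0.05, beside 5.61% of all genes, the other being Gata2, which luminal cells also express, and this count was 4 or 5 under all 18 alternatives. The list was not uniform: Kit, Hdc and Il1rl1 had positive values (0.84, 0.02 and 1.89), and Cpa3 was at 0 in Het 1, Het 2 and WT 3. The list summed to 356 to 518 CPM in WT against 167 to 309 CPM in Het, most of it Gata2. In whole-tissue RNA, fewer cells of a type and less RNA per cell cannot be told apart.

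Slc30a2 (ENSMUSG00000028836, GRCm38 chromosome 4, 134343181 to 134354484, plus strand), a transporter that loads zinc into secretory vesicles, had the smallest p of the secretory luminal list. That list went both ways: of 32 tested, 17 were positive and 15 negative (median 0.08). At an unadjusted p under 0.05, 2 were higher and 6 lower (all genes, 3.43% and 5.61%). Both counts moved with each library left out, to 9 and 4 without WT 2, 5 and 3 without Het 2, 1 and 11 without Het 1, 1 and 7 without WT 3, and 1 and 3 without WT 1 or Het 3. Slc30a2 was at 189, 130 and 120 CPM in WT against 49.8, 64.7 and 44.3 CPM in Het, with KO at 89.2, 75.9 and 57.8 CPM. Every Het library lay below every WT library. All 3 KO libraries lay below WT, and KO 3 lay within the Het range. Per gene length, the mean level was 40.0 FPKM in WT and 14.8 in Het, and the log2 fold change was -1.47 (SE 0.23, 95% interval -1.99 to -0.94, edgeR adjusted p = 0.38). The zinc list as a whole did not follow 1 direction, and its median was -0.04. Of 22 tested, 2, Slc30a2 included, were lower and 2 higher at an unadjusted p under 0.05 (all genes, 5.61% and 3.43%). The plasma membrane importer Slc39a6 was at 19.0, 24.5 and 11.6 CPM in WT against 38.9, 36.3 and 40.0 CPM in Het (1.06, SE 0.26), and the exporter Slc30a1 had 0.76 (SE 0.26). Slc39a13, a zinc transporter of the secretory pathway, had -0.41 (SE 0.17).

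Further genes with a small p on the lower side, which belong to none of the gene lists, had lower values in every Het library than in any WT library. Atp12a, a proton and potassium pump, was at 213, 104 and 110 CPM in WT against 55.0, 31.4 and 30.1 CPM in Het (-1.88, SE 0.34). B3gnt7, which extends keratan sulphate chains, was at 109, 58.6 and 65.0 against 34.9, 31.8 and 26.9 CPM (-1.31, SE 0.24). Prodh, the mitochondrial proline dehydrogenase, was at 250, 184 and 197 against 111, 77.1 and 64.0 CPM (-1.32, SE 0.26). WT 1 was highest in all 3 of these genes. Srpx (-2.19, SE 0.37), Gramd3 (-1.17, SE 0.22), and the predicted genes Gm15682 (-1.76, SE 0.32) and Gm5547 (-1.58, SE 0.32) also lay below WT in every Het library. DESeq2 called all 15 leading genes on this side too.

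Many genes of the unfolded protein response had lower values in Het. Of 31 tested, 16 were lower and 0 higher at an unadjusted edgeR p under 0.05, beside 5.61% lower among all genes. Without overlap 13 were lower (all genes, 8.59%), and the median log2 fold change was -0.37 (all genes tested, -0.00030). None passed the adjustment. The list summed to 16077, 19679 and 13639 CPM in WT against 13474, 10506 and 11603 CPM in Het, and to 15076, 11979 and 12826 CPM in KO. WT 2 was the highest library and Het 1 nearly reached WT 3. Without WT 2 the count was 6, without Het 3 it was 10, and over all 18 alternatives it ran from 6 to 18, while the median stayed between -0.59 and -0.25.

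Syvn1 (ENSMUSG00000024807, chromosome 19, 6046576 to 6053712), the ubiquitin ligase that marks misfolded proteins for degradation, led the list. It was at 250, 438.96 and 240 CPM in WT against 176, 108 and 132 CPM in Het (-1.16, SE 0.26, edgeR adjusted p = 0.392), and at 146 to 163 CPM in KO. Herpud1, a partner of Syvn1 in the same degradation complex, was at 514, 762 and 462 against 361, 321 and 338 CPM (-0.77, SE 0.19), with KO at 277 to 307 CPM, below every Het library. Hsp90b1 (chromosome 10, 86690209 to 86705509), an abundant chaperone of the endoplasmic reticulum, was at 842, 1408 and 809 against 597, 549 and 602 CPM (-0.81, SE 0.22). The 3 Het values of Hsp90b1 lay within a narrow band, below all WT values. Manf, a secreted protein induced by folding stress, had -0.80 (SE 0.22). The next members by p, taken after their values were seen, were Calr (-0.63), Pdia4 (-0.80), Sdf2l1 (-0.92), Creld2 (-1.35) and Hspa5 (-0.76), which encode chaperones, disulphide isomerases and their partners and were lower in all 3 Het libraries than in any WT library. Of the sensors, Atf6 (-0.64) was among the 16, while Ern1 (-0.22), Eif2ak3 (0.17) and the factor Xbp1 (0.14) were not.

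The promoters of these genes were read for the endoplasmic reticulum stress element, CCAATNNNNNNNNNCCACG, the sequence that ATF6 binds together with NF-Y. Windows ran from 250 bases before to 50 bases after the transcription start, from RefSeq annotation of GRCm38.p6, and both strands were searched. Of the 32 list genes 25 had a window, and 8 of these (32.0%) held the element, against 37 of 27025 genes (0.137%). The list was chosen as genes of this response, so that difference in share describes the list and not the Het libraries. Shown are Syvn1, the leading member, with a match 26 to 44 bases before the start, Hsp90b1, which has 2 matches, and Creld2, the member with the most negative log2 fold change. The element is in capitals, in its reverse complement where it lies on the other strand.
Syvn1, chr19:6046326-6046625, plus strand: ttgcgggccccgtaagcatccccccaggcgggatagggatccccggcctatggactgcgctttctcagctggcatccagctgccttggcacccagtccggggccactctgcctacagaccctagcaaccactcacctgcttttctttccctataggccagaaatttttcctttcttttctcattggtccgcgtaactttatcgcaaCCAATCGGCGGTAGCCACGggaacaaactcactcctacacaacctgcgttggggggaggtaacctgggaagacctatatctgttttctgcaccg
Hsp90b1, chr10:86705395-86705694, minus strand: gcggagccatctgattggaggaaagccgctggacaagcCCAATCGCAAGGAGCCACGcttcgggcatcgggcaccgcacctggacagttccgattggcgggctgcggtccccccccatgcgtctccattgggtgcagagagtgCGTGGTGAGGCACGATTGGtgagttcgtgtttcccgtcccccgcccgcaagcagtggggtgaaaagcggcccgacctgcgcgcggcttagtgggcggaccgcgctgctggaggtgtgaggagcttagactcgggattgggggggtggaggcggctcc
Creld2, chr15:88819396-88819695, plus strand: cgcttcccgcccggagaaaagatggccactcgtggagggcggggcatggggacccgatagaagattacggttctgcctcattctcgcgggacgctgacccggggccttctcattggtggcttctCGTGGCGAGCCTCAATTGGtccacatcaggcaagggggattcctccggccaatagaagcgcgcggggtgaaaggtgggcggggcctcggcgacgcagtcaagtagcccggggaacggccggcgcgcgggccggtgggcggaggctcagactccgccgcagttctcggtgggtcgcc
The 8 list members with the element had a median log2 fold change of -0.78, and 6 were lower at an unadjusted p under 0.05; the exceptions were Dnajc3 and Canx. The 17 members with a window and no match had a median of -0.32, and 7 were lower. Of the other genes with the element 11 were tested, with a median of -0.64. Of these, 3 were lower (27.3%): Derl3 (-1.27), which acts in the degradation of misfolded proteins, Alg12 (-0.68), a mannosyltransferase of the endoplasmic reticulum, and Pan2 (-0.64). Among all 11930 tested genes with a window 5.81% were lower. Derl3, Alg12 and Pan2 were named after their values were seen. A match describes the letters and does not show that a factor binds there. The list was chosen with earlier results of these data known, and a part of the element in the lower values was not tested.

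Genes of the ATF4 amino acid response were lower in part. Of 34 tested, 10 were lower and 1 higher at an unadjusted edgeR p under 0.05 (all genes, 5.61% and 3.43%), and the median was -0.33. Gtpbp2, which acts in ribosome rescue, was at 84.4, 73.3 and 82.7 CPM in WT against 43.5, 50.4 and 39.8 CPM in Het (-0.85, SE 0.14, edgeR adjusted p = 0.38), and at 64.0 to 68.4 CPM in KO. Ddit3, which encodes the stress factor CHOP, was at 39.8, 56.9 and 28.5 against 14.1, 13.8 and 16.2 CPM (-1.51, SE 0.28), and KO stood at 12.5 to 20.3 CPM. For Ddit3 the Het and KO libraries shared a range, below WT, while for Gtpbp2 the KO libraries lay between. Chac1, which breaks down glutathione, was at 41.1, 32.0 and 25.4 against 2.81, 10.02 and 10.2 CPM (-2.10, SE 0.52). The member on the higher side was Slc6a9, a glycine transporter, at 13.02, 12.0 and 12.6 against 24.8, 22.2 and 16.005 CPM (0.74, SE 0.22). Leaving out Het 3 left 5 members lower, leaving out WT 1 left 6, and leaving out Het 2 gave 16.

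The Chac1 promoter is shown because Chac1 had the most negative log2 fold change of that list and holds the ATF4 composite element TGATGNAA, in capitals and on the minus strand.
Chac1, chr2:119350992-119351291, plus strand: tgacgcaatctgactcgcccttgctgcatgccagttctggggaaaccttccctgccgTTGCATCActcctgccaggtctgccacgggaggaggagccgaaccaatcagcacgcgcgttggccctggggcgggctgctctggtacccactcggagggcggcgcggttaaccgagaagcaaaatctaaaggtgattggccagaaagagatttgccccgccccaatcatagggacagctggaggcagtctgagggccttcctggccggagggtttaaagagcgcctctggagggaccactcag
This shorter element was in 11 of the 31 list genes with a window (35.5%) and in 4.51% of all genes. Here too the list was chosen as genes of the response, and the shares describe the list only. Members with and without it had similar medians, -0.34 for the 10 tested with a match and -0.37 for the 20 without, with 3 and 7 lower at an unadjusted p under 0.05. Of 323 other tested genes with the element 7.12% were lower, beside 5.81% of all tested genes with a window.

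**Figure D2:**
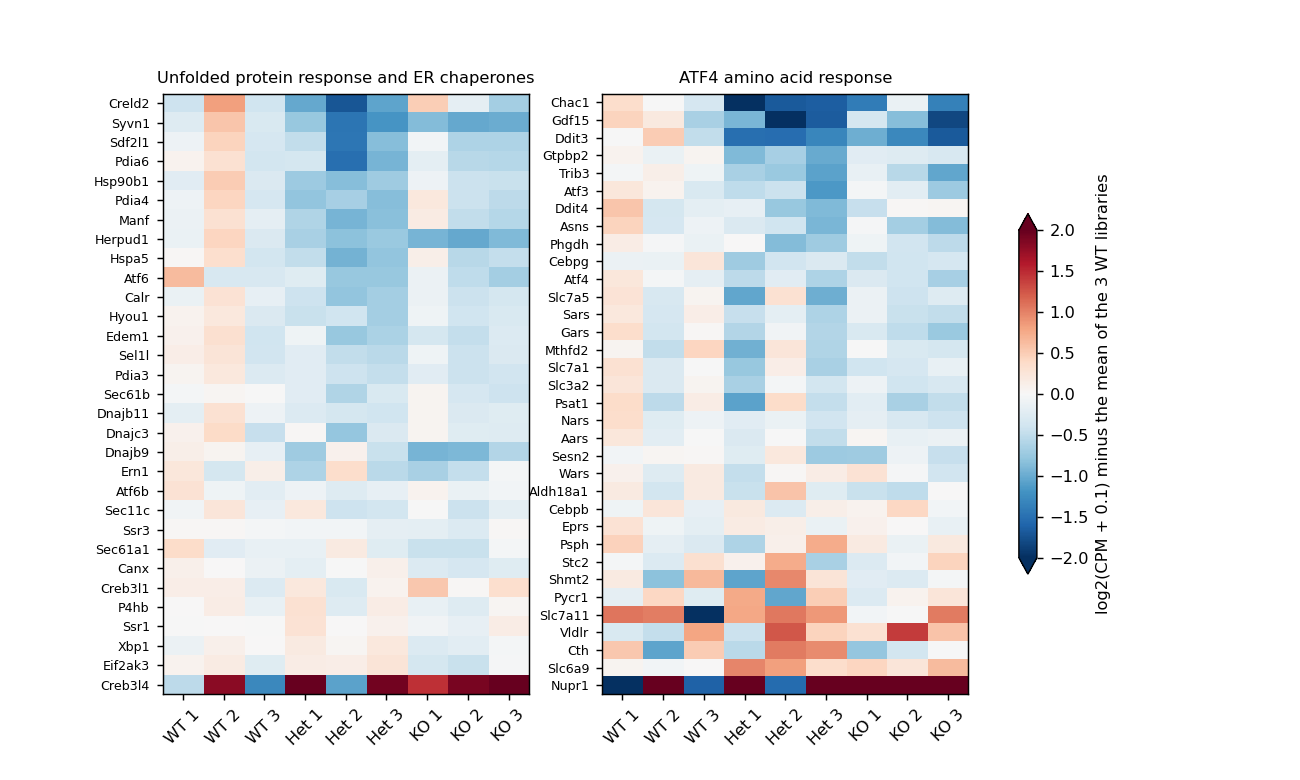
Per-library level of each tested member of the unfolded protein response and ATF4 lists, as log2(CPM + 0.1) minus the mean of the 3 WT libraries. Rows are ordered by the edgeR log2 fold change, Het against WT, and colours end at -2 and 2. Blue cells fill the upper rows in all 3 Het libraries, and the unfolded protein response members are highest in WT 2.

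Several markers of vessels, and the globin genes, had lower values in Het. Of 24 tested vascular endothelial markers 23 had a negative log2 fold change (median -0.82), 8 were lower and 0 higher at an unadjusted edgeR p under 0.05 (all genes, 5.61% lower), and the list summed to 169, 230 and 259 CPM in WT against 99.8, 148 and 130 CPM in Het. Plvap (ENSMUSG00000034845, chromosome 8, 71497765 to 71511752), of the diaphragms of fenestrated capillaries, was at 9.36, 9.94 and 15.4 CPM in WT against 3.95, 2.25 and 4.03 CPM in Het (-1.76, SE 0.36, edgeR adjusted p = 0.392), and at 11.5 to 20.9 CPM in KO. Vwf, the von Willebrand factor, was at 14.9, 15.1 and 15.97 against 2.27, 5.52 and 2.59 CPM (-2.14, SE 0.46), and Emcn, an endothelial sialomucin, had -1.47 (SE 0.35). The Het libraries lay below WT in all 3 of these genes, and the summed Het levels were also below every WT level. The count of 8 was 4 without WT 2 or with the seminal vesicle score as covariate, and 5 without WT 3 or Het 1. Lyve1, of lymphatic vessels, was at 3.14, 10.3 and 6.58 against 0.541, 1.06 and 1.21 CPM (-2.82, SE 0.57). Of 7 tested lymphatic markers only 1 was lower at that threshold (all genes, 5.61%), and 1 had a positive value. The lymphatic list overlapped in sum, at 26.9, 50.3 and 43.7 CPM in WT against 16.2, 52.4 and 29.5 CPM in Het.

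Hba-a1 (ENSMUSG00000069919, chromosome 11, 32283511 to 32284465), an alpha-globin gene of red cells, was at 30.0, 21.0 and 32.0 CPM in WT against 10.1, 7.22 and 5.13 CPM in Het (-1.89, SE 0.32, edgeR adjusted p = 0.39), and at 20.7 to 38.3 CPM in KO. Hbb-bs had -2.18 (SE 0.53) and Hbb-bt -3.51 (SE 0.89), and Hba-a2 -2.75 (SE 1.20), and in all 4 globin genes every Het library lay below every WT library. These copies are near identical and may share reads. Of 7 tested red cell genes these 4 were lower at an unadjusted p under 0.05, beside 5.61% of all genes. The summed list overlapped, at 218 to 1001 CPM in WT against 94.3 to 1493 CPM in Het, since most of it was Bpgm, an enzyme of red cell glycolysis (0.49), which ran from 66.1 CPM in Het 1 to 1472 CPM in Het 2.

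Several other stromal and immune lists also had negative medians, and their counts at an unadjusted p under 0.05 stand beside 5.61% lower among all genes. Not every immune list had lower members in number. Of 18 MHC and antigen presentation genes 0 were lower (median -0.09), and of 13 T and NK cell genes 0 (median -0.28). Of 29 interferon-stimulated genes 1 was higher and 1 lower (median 0.26). Of 25 macrophage and dendritic cell markers 7 were lower (median -0.72; summed 179 to 256 CPM in WT against 124 to 172 CPM in Het), among them Tyrobp (-1.84, SE 0.55), C1qa (-0.95, SE 0.29) and C1qb (-0.83, SE 0.29). Of 24 complement and coagulation genes 8 were lower (median -0.76), led by C3 at 58.0, 60.7 and 63.3 CPM in WT against 24.1, 31.7 and 48.6 CPM in Het (-0.80, SE 0.24), with Thbd, C4b and C1ra at -1.19, -1.21 and -1.23, while its summed level overlapped (3036 to 5022 CPM in WT against 2062 to 4472 CPM in Het). Without WT 2 the counts were 3 and 2, and without Het 3 the macrophage count was also 3. Of 32 fibroblast and matrix genes 7 were lower (median -0.48), with Pi16, a marker of adventitial fibroblasts, at 23.1, 40.8 and 28.4 against 11.8, 12.7 and 9.16 CPM (-1.45, SE 0.35), Cd34 at -1.02 and Fbn1 at -1.29, and this count was 3 without WT 2 and 15 without WT 1. The fibroblast list summed to 1254 to 2793 CPM in WT against 1421 to 1787 CPM in Het. The part of these cell type lists in the other results was not tested. Clec3b, which encodes the plasma and matrix protein tetranectin, was at 22.8, 36.8 and 30.7 against 8.86, 6.66 and 8.22 CPM (-1.93, SE 0.36). Of 8 B and plasma cell genes 3 were lower: Igha (-1.95, SE 0.48), Derl3 and Ighm (-1.56, SE 0.63). Smooth muscle did not share this order: 15 of its 20 markers were positive (median 0.16), and the list summed to 6390 to 12544 CPM in WT against 2665, 14562 and 13990 CPM in Het. Het 1 was the lowest and Het 2 and Het 3 the highest of the 6 libraries, and without Het 1, 8 members were higher at an unadjusted p under 0.05. Among all genes 1307 were higher at that threshold without Het 1, beside 577 (3.43%) with all libraries. The nerve and Schwann list had 21 of 22 members positive (median 1.26), 0 under the unadjusted threshold in edgeR and 2 by DESeq2, and 10 without Het 1, where the list summed to 200 CPM against 576 and 419 CPM in Het 2 and Het 3.

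**Figure D3:**
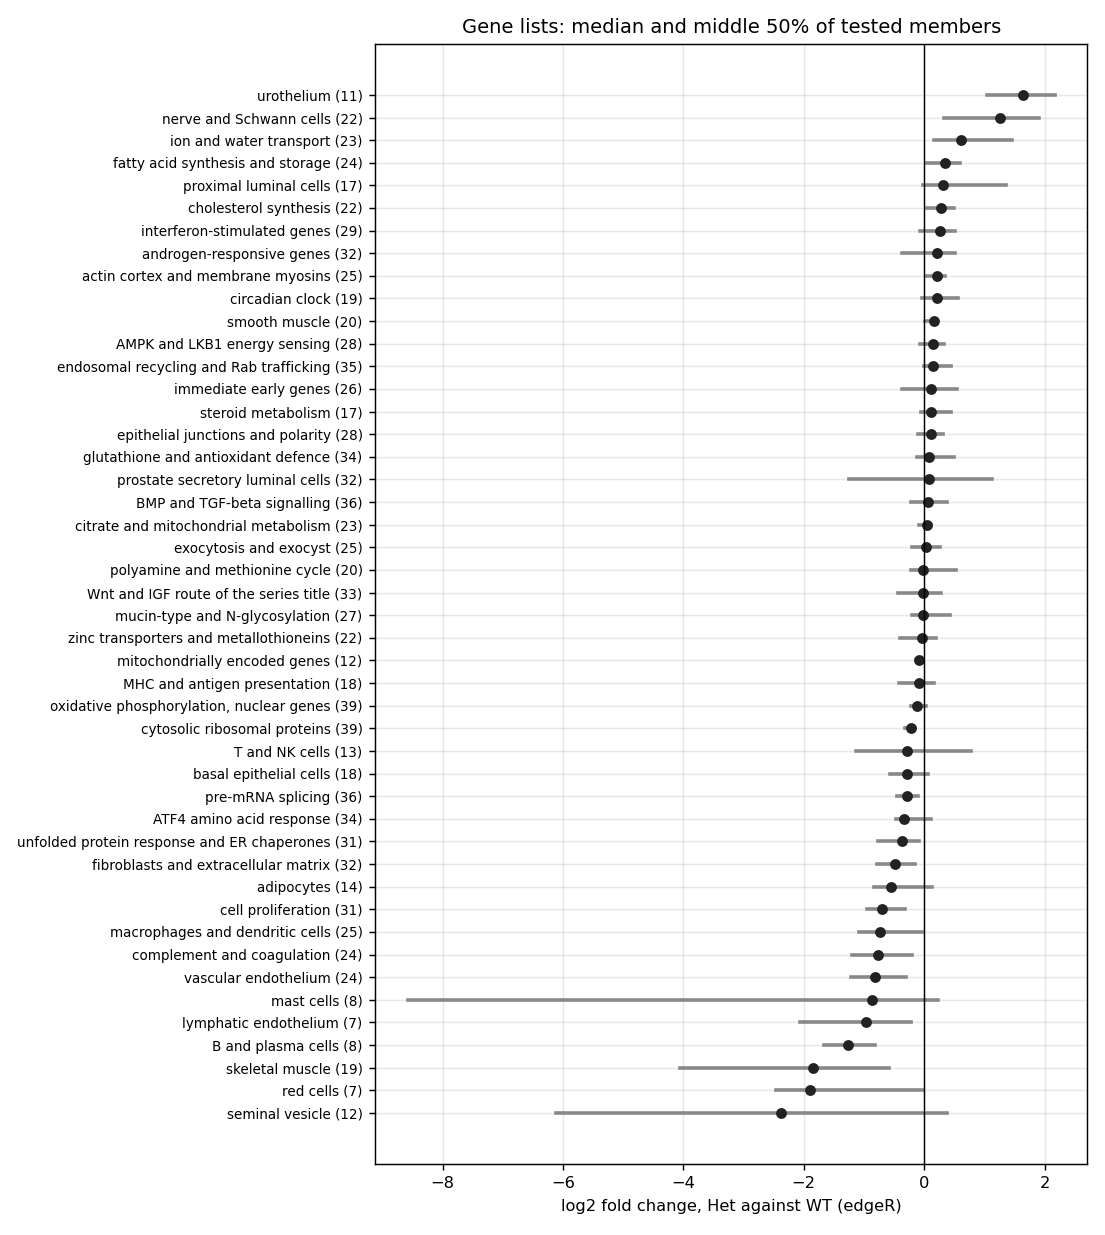
Median (point) and middle 50% (bar) of the edgeR log2 fold change, Het against WT, for the tested members of each gene list, with the number tested in brackets. Red cell, endothelial, macrophage and complement lists lie left of 0, and the nerve list lies right of it with no member under the unadjusted threshold.

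Androgen-responsive genes divided. Of 32 tested, 3 were higher and 4 lower at an unadjusted edgeR p under 0.05 (all genes, 3.43% and 5.61%), and the median was 0.22. Fkbp5, a co-chaperone of steroid receptors, was at 80.2, 152 and 172 CPM in WT against 337, 238 and 302 CPM in Het (1.11, SE 0.30), and Acpp, described above, also stood on that side. Pbsn was at 13056, 10907 and 8323 CPM in WT against 6299, 2508 and 2697 CPM in Het (-1.49, SE 0.42), and Gata2, a transcription factor of luminal cells, was at 494, 334 and 336 against 164, 257 and 163 CPM (-0.997, SE 0.23). All 4 of these genes separated the groups, in opposite directions. Without Het 2 the counts were 9 higher and 2 lower, without Het 1 they were 6 and 6, without WT 2 they were 5 higher and 3 lower, and without Het 3 they were 3 and 2. Sult1e1, the oestrogen sulphotransferase, was at 12.9, 15.8 and 12.7 against 7.78, 3.54 and 2.65 CPM (-1.57, SE 0.48). Srd5a1, the type I isoenzyme, overlapped, at 8.11, 7.501 and 3.53 against 5.46, 19.0 and 10.8 CPM (0.88, SE 0.50).

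Among abundant genes the Het libraries differed from each other on the lower side. Of 1490 genes with a mean of at least 100 CPM over the 6 libraries, 96 were higher and 157 lower without overlap. These were 6.44% and 10.5%, beside 4.7% and 8.59% of all genes tested. The largest difference was that of Tcaf3, a regulator of a cold-sensing ion channel, at 1923, 804 and 564 CPM in WT against 460, 66.8 and 33.0 CPM in Het (-2.55, SE 1.08). Ms4a5 was at 320, 192 and 214 against 103, 16.1 and 12.8 CPM (-2.47, SE 0.97), and Col4a6, a basement membrane collagen chain, at 287, 172 and 163 against 99.5, 34.9 and 29.6 CPM (-1.92, SE 0.55). In these 3 genes Het 1 was well above the other Het libraries and below every WT library. Rnase1 (-1.75, SE 0.49), Pnliprp1 (-1.70, SE 0.51), Gsdma (-1.65, SE 0.57), Tcaf2 (-1.64, SE 0.52) and Gm5615 (-1.86, SE 0.57) also had Het 1 as the highest Het library, and for all 8 the KO log2 fold change against WT was between -1.15 and -0.51.

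On the higher side, Prom2, a protein of membrane protrusions, was at 86.1, 219 and 136 CPM in WT against 483, 290 and 322 CPM in Het (1.31, SE 0.39). Tnfrsf21, a death receptor, was at 62.4, 93.9 and 122 against 180, 258 and 193 CPM (1.18, SE 0.28). WT 1 was the lowest library for both. Fbxo32 (1.31, SE 0.36), Rgs2 (1.26, SE 0.45) and the calcium channel gene Trpv6 (1.08, SE 0.42) separated the groups by a narrow margin, with WT 2 next to Het 2: Fbxo32 was at 96.5 CPM in WT 2 and 98.1 CPM in Het 2.

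**Figure D4:**
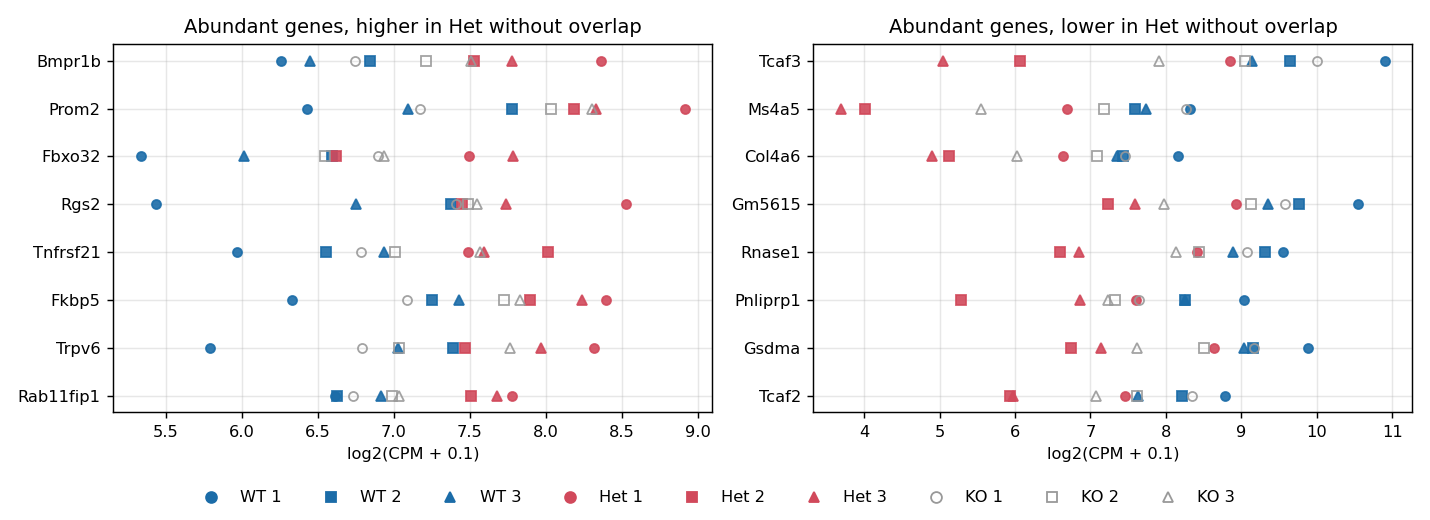
The 8 non-overlapping genes per direction with the largest log2 fold change among those averaging at least 100 CPM, as log2(CPM + 0.1), 1 symbol per library. On the lower side Het 1 is the Het library nearest WT in each row, as for Tcaf3 (460 CPM against 66.8 and 33.0); on the higher side WT 2 and Het 2 nearly meet for Fbxo32, Rgs2 and Trpv6.

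Among trafficking lists, exocytosis and exocyst genes split, with 13 of 25 positive (median 0.03), 2 higher and 1 lower at an unadjusted edgeR p under 0.05, and none without overlap. Of 35 endosomal recycling and Rab genes 2 were higher and 1 lower without overlap (all genes, 4.7% and 8.59%), and the median was 0.14. At that p threshold 4 were higher and 0 lower (all genes, 3.43% and 5.61%). Beside Rab11fip1 these were Ehd3, at 0.732, 1.46 and 0.622 CPM in WT against 2.76, 3.03 and 3.15 CPM in Het (1.65, SE 0.53), Ehd4 (0.43, SE 0.19) and Rab11fip5 (0.80, SE 0.35), and without Het 3 the count was 2. Of 22 cholesterol synthesis genes 18 were positive (median 0.28) and 3 were higher, among them Fdft1, squalene synthase, at 70.0, 70.5 and 76.5 against 92.3, 92.0 and 116 CPM (0.47, SE 0.14), and Msmo1 (0.46, SE 0.17). That count was 1 without Het 1, 2 without Het 3 or WT 3 and 8 without Het 2. Odc1, the rate-limiting enzyme of polyamine synthesis, was at 151, 233 and 184 against 361, 241 and 397 CPM (0.81, SE 0.23), while Sms, spermine synthase, was at 54.8, 41.6 and 35.8 against 30.6, 24.04 and 23.9 CPM (-0.75, SE 0.26). These 2 genes, picked by p, stood on opposite sides. Of the 20 tested polyamine and methionine cycle genes 10 were positive and 10 negative (median -0.01), with 1 higher and 1 lower at that threshold.

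The 4 BMP and TGF-beta genes with the smallest p divided by direction. Bmpr2, the type II receptor, was at 52.9, 59.9 and 58.1 CPM in WT against 81.8, 65.5 and 79.0 CPM in Het (0.41, SE 0.14), beside Bmpr1b above. Id3, a target of BMP signals, was at 212, 172 and 154 against 65.6, 149 and 87.0 CPM (-0.84, SE 0.28), and the inhibitory Smad7 was at 49.7, 31.8 and 30.1 against 20.0, 27.3 and 16.8 CPM (-0.80, SE 0.25). All 4 genes separated the groups, having been picked by p. Over the 36 tested genes of the list 4 were higher and 3 lower at an unadjusted p under 0.05 (all genes, 3.43% and 5.61%). The list median was 0.07. Without WT 1 these counts were 1 and 0, and without Het 3 they were 1 and 3.
Among Wnt genes, Fzd6 (0.99, SE 0.26), Tcf7l1 (0.75, SE 0.21) and Ctnnb1, beta-catenin (0.38, SE 0.14), were higher and the receptor Fzd7 (-0.66, SE 0.20) and Igfbp4 (-0.75, SE 0.31) lower at that threshold, and the list median over 33 genes was -0.03. These were 3 higher and 2 lower of the 33, beside 3.43% and 5.61% of all genes. Without Het 1 these counts were 5 and 5.
Of 27 glycosylation genes 3 were higher and 3 lower (all genes, 3.43% and 5.61%), and the median was -0.03. Galnt3 (1.18, SE 0.34) and Galnt7 (1.20, SE 0.36), which start mucin-type sugar chains, were higher, and Fut8 (-0.95, SE 0.24), the core fucosyltransferase of N-glycans, and Mgat4b (-0.80, SE 0.27) were lower, and in these 4 every Het library lay on one side of WT.

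Ribosomal protein genes were under the unadjusted threshold no more often than all genes, of which 5.61% were lower. None of 39 cytosolic ribosomal protein genes had a positive log2 fold change, and 5 were lower without overlap (all genes, 8.59%), but the median was -0.22, only 2, among them Rps27a (-0.95, SE 0.42), were under the unadjusted threshold, and Het 1 summed to 36734 CPM, within the WT range of 34080 to 38211 CPM, with 24759 and 30489 CPM in Het 2 and Het 3. Without Het 1 the count was 11, and without Het 2, Het 3, WT 1 or WT 2 it was 0. Of 36 splicing genes 9 were lower (median -0.29), with Tra2a at 86.4, 74.0 and 66.2 against 56.3, 31.4 and 28.2 CPM (-0.97, SE 0.25). That count was 1 without WT 2, 2 without Het 2 or Het 3, 4 without WT 1 and 19 without Het 1. Of 31 proliferation genes 26 were negative (median -0.70) and 4 lower: Mki67, at 22.3, 40.6 and 29.9 against 8.86, 17.1 and 10.04 CPM (-1.37, SE 0.44), Aurka (-1.15, SE 0.40), Cdc20 (-1.16, SE 0.46) and Ccna2 (-1.88, SE 0.77). Without WT 2 none was under the threshold, and without WT 3 there were 2. Nuclear oxidative phosphorylation genes (median -0.12) and mitochondrially encoded genes (median -0.08) stayed near 0.

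Fewer genes were detected in the Het libraries. At an equal depth of 16233392 counts, the number of genes with at least 1 count was 20394, 19622 and 17877 in WT against 17756, 17154 and 16845 in Het, with KO at 20098, 20380 and 20338. The Het mean of 17252 ± 463 lay 2046 genes below the WT mean of 19298 ± 1290 (SD, n = 3 each; exact permutation test, two-sided, p = 0.1, the smallest that 3 against 3 allows). Every Het library lay below every WT library, but WT 3 was close to Het 1. Leaving out 1 library moved the difference to between -2756 and -1498. Among protein-coding genes the difference was -805, for genes with at least 5 counts -998, and for genes at 1 CPM or more -199, where the exact permutation p was 0.2.

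The difference in detection lay among genes of low abundance. Of 2403 genes that averaged 1 to 3 CPM in KO, 3.58%, 3.79% and 11.2% had no count in WT 1 to 3 and 16.02%, 14.5% and 17.1% in Het 1 to 3. Of 7967 genes at 10 to 100 CPM, 0.126% to 0.264% had none in WT and 0.314% to 0.477% in Het. In the first of these ranges WT 3 lay between the other WT libraries and Het. In the lowest range, 2786 genes at 0.1 to 0.3 CPM, the groups overlapped: 44.0%, 51.5% and 69.5% were at 0 in WT 1 to 3, and Het 1, at 67.7%, lay below WT 3, with Het 2 and Het 3 at 74.4% and 77.1%. Of the 2685 genes at 0.3 to 1 CPM, 36.1% were at 0 in WT 3 and 38.6% in Het 1. In the full libraries 241 genes had a count in all 3 WT libraries and none in Het, and 9 had the reverse. Of the 241, 108 were protein coding, 32 lincRNA, 29 antisense and 21 of the class to be experimentally verified (TEC). The share of counts on protein-coding genes was similar, at 98.0% to 98.2% in WT and 98.2% to 98.5% in Het.

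**Figure D5:**
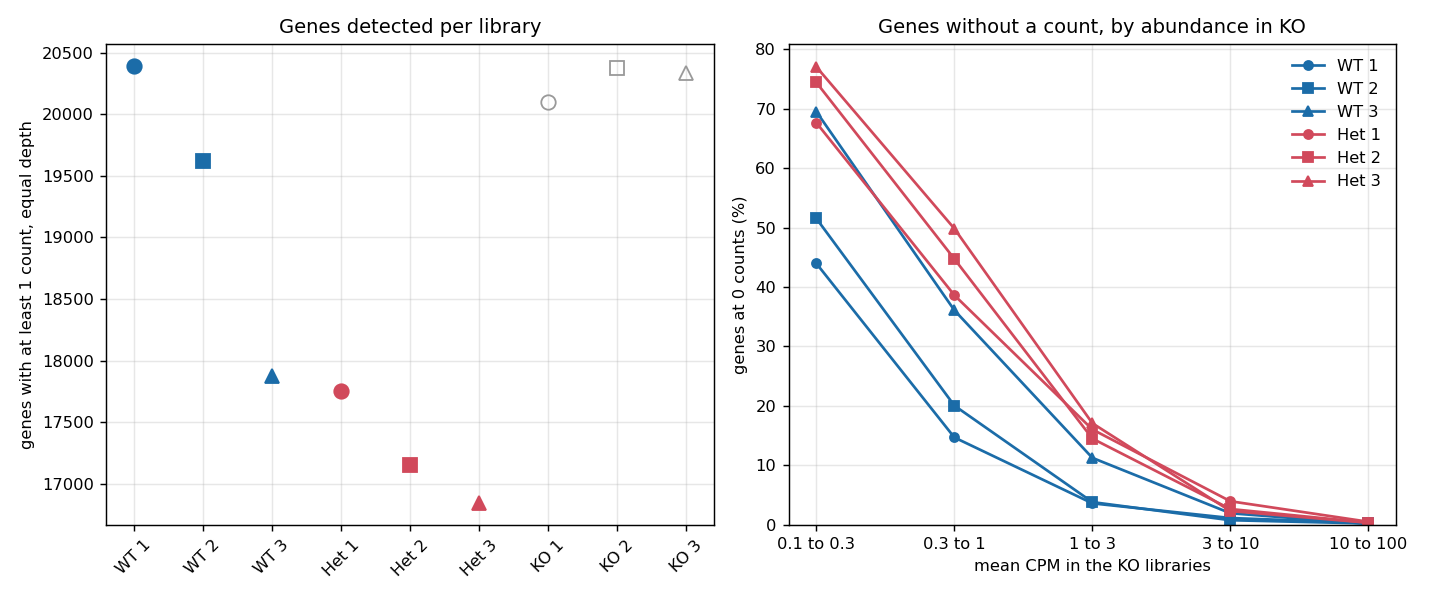
Left, number of genes with at least 1 count expected after random thinning of each library to 16233392 counts, on an axis that does not start at 0; right, percentage of genes with no count against their mean CPM in the KO libraries. The 3 Het libraries have the lowest counts of genes, 16845 to 17756, and among genes at 10 to 100 CPM every WT and Het library is at 0.477% or below.

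Beyond the mast cell proteases, the genes absent from all Het libraries with the highest WT levels came mainly from WT 3. Myh4, Pvalb, Myl3 and Ckmt2, genes of fast or striated muscle, had 61.5, 26.8, 13.7 and 5.75 CPM in WT 3 and 0 counts in WT 1 and WT 2. Doxl2 was at 0, 0.399 and 4.72 CPM in WT. These 5 therefore rest on 1 or 2 libraries, in contrast to the proteases. Genes with reads in all 3 WT libraries and none in Het were also Ccl24, an eosinophil chemokine (0.889, 2.40 and 0.933 CPM), Slc38a5, an amino acid transporter (1.46, 0.843 and 1.19 CPM), and the non-coding 1700041G16Rik and 5330439K02Rik. Cd37, a leukocyte tetraspanin, was at 2.30, 1.55 and 1.87 CPM in WT against 0.108, 0 and 0 CPM in Het. Ccl24 and Cd37 were present in all KO libraries, Cd37 at 1.41 to 3.51 CPM, while Slc38a5 had no count in KO 1.

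In the other direction, the genes with no count in WT and the highest Het levels were low and uneven. Adcyap1, a neuropeptide gene, was at 0, 5.75 and 0.993 CPM in Het, and Mucl1, Gm2670, Gpr158, Dusp9 and Dnah5 were likewise at 0 in Het 1. None of the 8 had counts in all 3 Het libraries. Among the 8 genes with the widest gap between groups on the higher side were Parvg, an adhesion protein of blood cells, at 0.471, 0.488 and 0.570 CPM in WT against 3.03, 2.53 and 2.10 CPM in Het (2.31, SE 0.66), and 9030407P20Rik (2.11, SE 0.51). Pde4a, a cAMP phosphodiesterase, was at 1.05, 1.02 and 1.14 against 3.30, 4.23 and 3.59 CPM (1.79, SE 0.57). For Parvg and Pde4a the WT libraries were close together and every Het library lay above them.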

How the data were processed

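Total RNA of mouse prostate was sequenced from polyA-enriched libraries, per the labels' protocols. The authors deposited raw read counts per gene (whole numbers, not normalized) and FPKM values per library, which are scaled to gene length and library size. Reads were placed on GRCm38 (mm10), according to the submitters' processing notes. The aligner, the counter and its strand setting were not given in the sources used here. Reads of overlapping or antisense genes may thus be mixed, as may those of near-identical copies.

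Counts of all 9 libraries (16233392 to 24017791 each) entered 1 edgeR 4.0.16 quasi-likelihood model (robust, R 4.3.3) with genotype as factor, after filterByExpr and TMM. A gene was called at a Benjamini-Hochberg adjusted p under 0.05 over all genes tested. SE is the absolute log2 fold change over the square root of F, and intervals cover 95%. TMM-scaled library sizes underlie the CPM values. FPKM served only for levels per length. A gene at 0 in a whole group has a bound from 3 counts over that group, which reflects counting error alone because PCR copies were not told apart by molecular identifiers. Detection was rarefied to the smallest library. The edgeR script was tested on simulated data.

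The members and the 46 gene lists were chosen with earlier results of these data known. Named genes were Srd5a2, Srd5a1, Rab11fip1, Slc30a2, Plvap and Hba-a1; per direction, the 15 with the smallest p, the 8 with the widest gap between groups, the 8 with the largest change among non-overlapping genes averaging at least 100 CPM, and the 8 highest genes at 0 in the opposite group; and up to 4 per list by p. Some members of the lists are not reported here. Replicate numbers follow accession order and pair nothing. Alternatives were RLE and upper quartile scaling, library sizes without the 12 genes over 1% of a library, other low-count filters, DESeq2 1.42.0, limma 3.58.1 voom with and without quality weights, the 6 libraries alone, 3 covariates, and leaving out each library.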

Additional observations from a re-analysis of the deposited data

How the results depend on the processing

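No paired analysis was possible because replicate numbers follow accession order only. The zero count of edgeR calls became 54 higher and 151 lower with DESeq2, 121 and 578 with limma voom with quality weights (which gave Het 1 and Het 2 the weights 0.254 and 0.325 and Het 3 2.99), and 40 and 183 with the seminal vesicle score as covariate. Leaving out 1 library gave 0 to 56 higher and 0 to 202 lower, the upper ends without Het 1; no other setting run gave a call. At an unadjusted p under 0.05, the 577 higher genes became 867 with DESeq2, 1546 with quality weights, 356 with the Het and WT libraries only and 1084 with the seminal vesicle score, and 387 to 1307 with 1 library left out. The 945 lower genes became 2848 with quality weights and 1723 with the seminal vesicle score, and 589 to 1981 with 1 library left out. With 1 library left out, fewer values have to separate, and 1307 to 2637 genes were higher and 1717 to 3278 lower without overlap. The difference in detected genes ran from -2756 to -1498 with 1 library left out. The cause of these shifts was not tested, apart from the smaller number of libraries. Of the values of named genes, 5 changed sign: Srd5a2 to 0.19 and Mmrn1 to 0.035 with the seminal vesicle score, Mylk to -0.10 with limma voom, and Tnnt3 and Atp2a1 without WT 3, where leaving out 1 library gave -5.76 to 1.19 and -11.16 to 1.69. Of the other values of named genes under an alternative, 3893 kept their direction and side of the threshold and 229 passed it. Of the list medians under an alternative, 785 moved by less than the spread between replicates and 43 by more. With 3 libraries per group, and many low genes at 0 counts in a library, small differences in low genes could not be resolved.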
